A study of Sus scrofa with 6 samples.

Results

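The genes described here make fatty acids, triglycerides and cholesterol. They were chosen by name as a set of 39, of which 20 belong to a lipogenic arm (fatty acids and triglycerides) and 19 to a sterol arm (cholesterol). Of the 39, 29 had an identifier among the 26733 genes of the tables, and 28 reached 1 FPKM (a read density scaled for transcript length and library depth) in at least 3 libraries and were tested, 13 lipogenic and 15 sterol. The malic enzyme gene ME1 stayed under that level, at 0.179 to 0.354 FPKM over the 6 libraries. ACACB, ELOVL6, SREBF1, THRSP, AGPAT2, DGAT2, MVD, PMVK, EBP and STARD4 were not analysed here, because the symbol table names no identifier for them.

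The tissue was liver of newborn piglets, all Landrace x Yorkshire, and the mothers differed in how tryptophan was spread over the day. The 2×Trp sows had 0.26% tryptophan in the morning and in the afternoon meal, and the High-Low sows 0.39% in the morning and 0.13% in the afternoon. There were 3 libraries of each group, and by its title the series looks for liver genes bearing on negative effects of tryptophan in the feed. Whether each library is a different animal is not stated in the labels, so the p-values reflect the spread among these libraries, part of which may be technical. The labels name no batch. Libraries are called by diet and replicate number, such as 2×Trp 3.

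Fatty acid synthesis starts in the cytosol, where ATP citrate lyase (ACLY) and acetyl-CoA synthetase (ACSS2) supply acetyl-CoA, acetyl-CoA carboxylase (ACACA) makes malonyl-CoA and fatty acid synthase (FASN) builds palmitate. Desaturases and elongases then modify the chain, and acyltransferases and phosphatidate phosphatases join it to glycerol. Cholesterol is made from the same acetyl-CoA through mevalonate, squalene and lanosterol. The lipogenic genes are known targets of SREBP-1c and ChREBP (the product of MLXIPL), the sterol genes of SREBP-2 (the product of SREBF2), and INSIG1 holds the SREBP precursors in the endoplasmic reticulum when sterols are plentiful. In the pig, adipose tissue is the main site of fatty acid synthesis, and the liver makes cholesterol and exports lipid.

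The libraries had FPKM totals of 956426 to 1230288, and their read depth is unknown because the values keep no counts. The mitochondrial share of the FPKM total separated the diets, at 3.48, 5.20 and 4.16% in 2×Trp 1, 2 and 3 and 10.02, 5.83 and 6.79% in High-Low 1, 2 and 3, with High-Low 1 far above the rest. With FPKM rescaled to the genes outside the mitochondrial sequence, 0 members were called in either direction. Hepatocyte markers were present in every library: the summed level of the 8 matched of 9 fixed markers was 44215 to 59592 FPKM in 2×Trp and 42655 to 65437 in High-Low. Of 6 adipocyte markers only PLIN1 was matched, at 0.676 to 1.16 FPKM in 2×Trp and 1.16 to 1.48 in High-Low. In bulk tissue, fewer cells of a type and less RNA per cell cannot be told apart. The library 2×Trp 3 stood apart in the genes described here, as set out below, so the spread and the correlations of the arms are given with and without it.

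No member differed between the maternal diets past the threshold. In limma, with Benjamini-Hochberg adjustment over 10901 genes and a threshold of 0.05, 0 of the 13 tested lipogenic members were called higher in High-Low and 0 lower, and of the 15 sterol members 0 and 0. Over all genes tested 0.00917% passed, which was 1 gene called higher that is no member and 0% called lower. At an unadjusted p under 0.05 there were 0 members, beside 3.16% of all genes (1.25% on the higher and 1.92% on the lower side). The diets did not overlap for 0 of the 28 members, beside 7.18% of all genes (3.06% higher and 4.12% lower). The smallest unadjusted p among the members was 0.195, for MLXIPL, with an adjusted p of 0.998 in limma.

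The lipogenic arm had a median log2 fold change (High-Low minus 2×Trp, on log2(FPKM + 1)) of -0.08, with 5 members positive and 8 negative. The sterol arm had a median of 0.02, with 8 positive and 7 negative. The median over all 10901 genes was -0.004, and 50.5% of them were negative. Without 2×Trp replicate 3 the medians of the arms were -0.53 and -0.32, and without 2×Trp replicate 2 they were 0.17 and 0.25. The 95% interval from limma spanned 0 for 28 of 28 members and lay inside -1 to 1 for 8 of them, 3 lipogenic and 5 sterol. For the other 20 members, a change of 2-fold in at least 1 direction was within the interval. For low genes a 2-fold change in FPKM is less than 1 on this scale, so the 8 intervals need not all exclude it. The interval was widest for FASN, from -2.24 to 2.09.

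**Figure D1:**
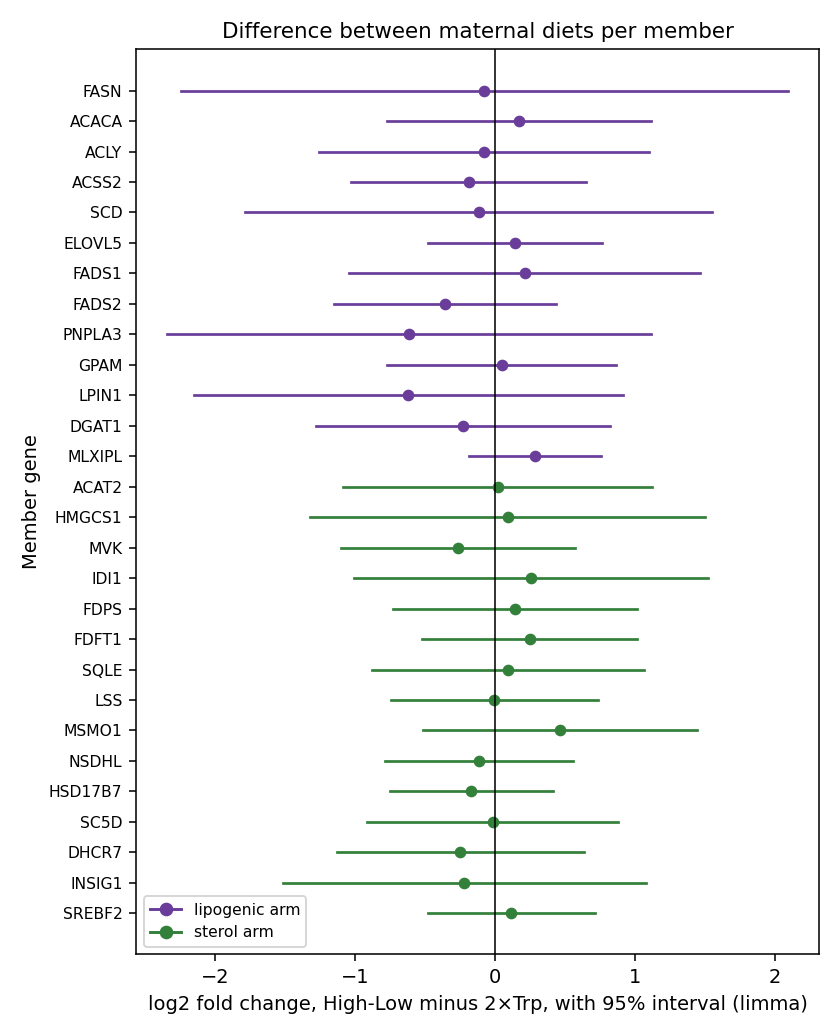
Log2 fold change of each tested member, High-Low minus 2×Trp on log2(FPKM + 1), with 95% intervals from limma (3 libraries per diet); purple marks the lipogenic and green the sterol arm. All 28 intervals span 0, and FASN has the widest, from -2.24 to 2.09.

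What varied was the level from library to library within a diet. The range of a member's log2(FPKM + 1) over the 6 libraries had a median of 1.79 in the lipogenic arm and 1.37 in the sterol arm, against 0.85 over all genes tested. Of the lipogenic members 7 of 13 were in the top 10% of genes by this range, as were 3 of 15 sterol members. Without 2×Trp 3 the medians were 1.44 and 1.24 against 0.81 over all genes, and 4 lipogenic and 3 sterol members were in the top 10%. The share of a gene's log2 variation (sum of squares) that lay between the diets had a median of 3.92% in the lipogenic arm and 3.05% in the sterol arm, against 10.5% over all genes.

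The library 2×Trp 3 was low in both arms. It lay below the mean of the 6 libraries for all 28 members (0 of 13 and 0 of 15 above it), and it held the lowest value for 8 lipogenic and 8 sterol members. Over all genes tested, 2×Trp 3 was above the mean for 51.0% and the lowest library for 12%, so its profile was not low in general. Its hepatocyte markers, as a mean log2 value relative to the 6 libraries, were at -0.21, between -0.26 in 2×Trp 1 and 0.53 in High-Low 1. Its erythroid markers stood at 1.04 and its macrophage markers at 0.46, on this measure the highest of the 6 libraries in both lists. Next were 2×Trp 1 for erythroid (0.71) and 2×Trp 2 for macrophage markers (0.30), libraries with lipogenic means of 0.43 and 0.57. By summed FPKM, 2×Trp 3 was highest in neither list. Its erythroid sum was 15368 against 15891 in 2×Trp 1, and its macrophage sum 579 against 582 in 2×Trp 2. As mean log2 values, the bile duct markers of 2×Trp 3 (0.14) were also the highest of the 6 libraries. Its endothelial (0.31) and stellate markers (0.33) were below only those of 2×Trp 1 (0.35 and 0.46). Its neutrophil and precursor markers stood at -0.04 and the adipocyte marker PLIN1 at 0.03. The part of these markers in the low lipid synthesis values was not tested.

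**Figure D2:**
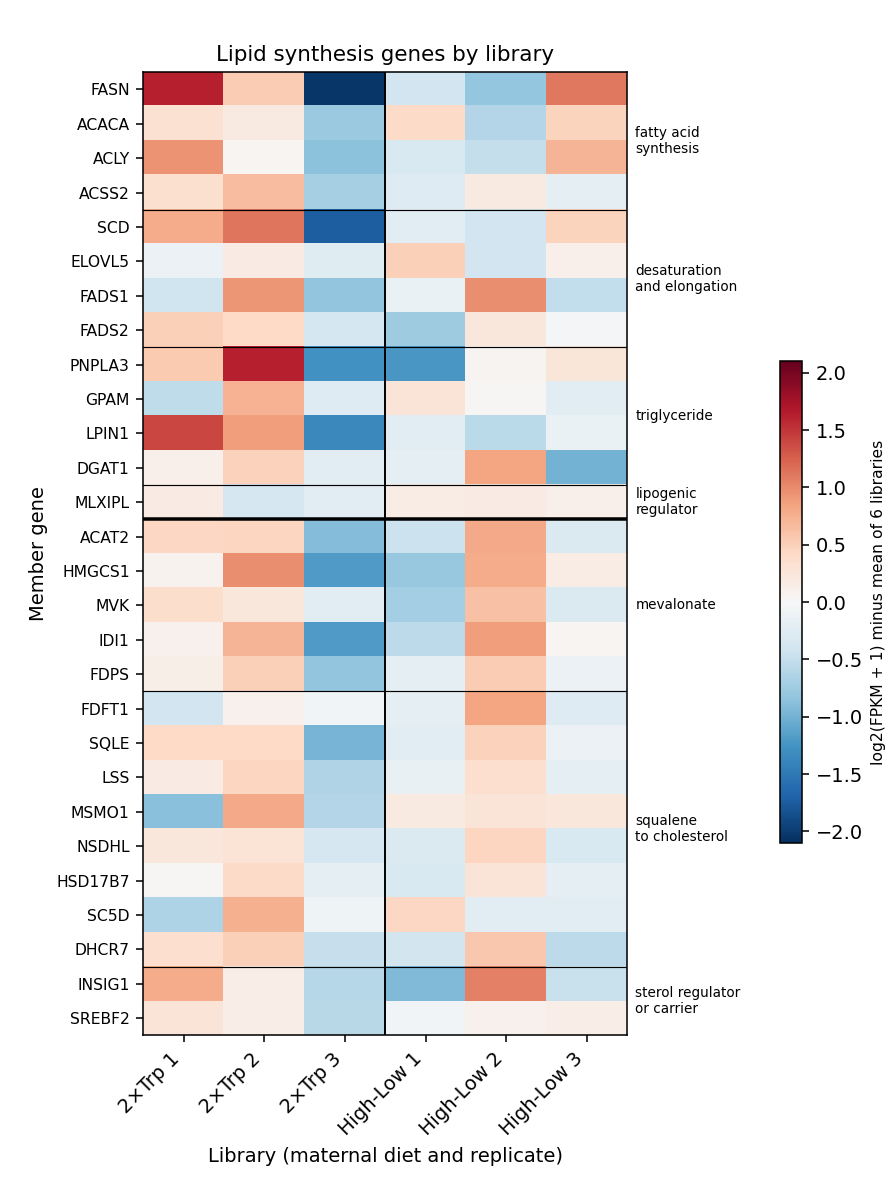
Level of each tested member in each library, as log2(FPKM + 1) minus the member's mean over the 6 libraries (red above, blue below); thin lines part the roles, the thick line parts the lipogenic from the sterol arm and the vertical line parts the diets. The column of 2×Trp 3 is below 0 for all 28 members, and FASN spans the widest range, 3.66.

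FASN, which builds palmitate, had the widest range of log2(FPKM + 1) of all members, though PNPLA3 varied more by fold. FASN is ENSSSCG00000029944 on the minus strand of chromosome 12, from 1023477 to 1034681 in susScr3. It had 249.9, 116 and 18.8 FPKM in 2×Trp 1, 2 and 3 and 60.4, 45.3 and 174 in High-Low 1, 2 and 3. The extremes of the series, 13.3-fold apart, were thus both 2×Trp libraries, and all High-Low values lay between them. The mean was 128 ± 116 FPKM in 2×Trp and 93.2 ± 70.4 in High-Low (SD, n = 3 each), with a log2 fold change of -0.08 (SE 0.92). The range of FASN was above that of 99.1% of genes tested. Without 2×Trp 3 the extremes of FASN were 5.52-fold apart, 2×Trp 1 against High-Low 2. The log2 range of FASN was then 2.44, below the 2.86 of PNPLA3.

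The other enzymes around FASN followed it to different degrees. ACLY, the cytosolic source of acetyl-CoA from citrate (chromosome 12, 21082917 to 21106780), had 22.7, 11.7 and 5.83 FPKM in 2×Trp 1, 2 and 3 and 8.88, 7.72 and 19.2 in High-Low 1, 2 and 3. These libraries stand in the same order as for FASN (Pearson's r 0.97 and Spearman's rho 1 on log2 values, n = 6; r 0.98 without 2×Trp 3). ACACA, which makes malonyl-CoA (chromosome 12, 40200509 to 40367985), had 10.3, 9.34 and 4.27 FPKM in 2×Trp and 10.9, 4.92 and 11.5 in High-Low. It was low in 2×Trp 3 and High-Low 2 and otherwise even, and the diets overlapped. ACSS2, which activates acetate, had 15.2 to 40.01 FPKM in 2×Trp and 20.8 to 29.0 in High-Low. Unlike FASN, it was highest in 2×Trp 2. ACACA overlaps an unnamed gene and ACSS2 the gene GSS on the other strand, and no source used here says if reads were assigned by strand, so these values are uncertain.

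Stearoyl-CoA desaturase (SCD), which makes monounsaturated fatty acids, is on chromosome 14 from 120964206 to 120980914. SCD had 119, 151 and 20.1 FPKM in 2×Trp 1, 2 and 3 and 58.1, 51.7 and 95.9 in High-Low 1, 2 and 3. As with FASN, the highest and the lowest library were both 2×Trp, 7.51-fold apart, and the High-Low values lay between. Without 2×Trp 3 the extremes of SCD were 2.92-fold apart. The means were 96.6 ± 68.1 and 68.5 ± 23.9 FPKM (SD, n = 3 each), and the log2 fold change was -0.12 (SE 0.71). SCD had the highest correlation with the mean of the other lipogenic members, at r 0.97 over the 6 libraries and 0.92 without 2×Trp 3.

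The delta-5 and delta-6 desaturases FADS1 and FADS2, which act in turn on polyunsaturated fatty acids, lie beside each other on chromosome 2, FADS2 from 9119389 to 9152215 and FADS1 from 9247472 to 9263631. FADS1 had 51.7, 132 and 38.5 FPKM in 2×Trp 1, 2 and 3 and 62.7, 136 and 48.0 in High-Low 1, 2 and 3. It was high in 1 library of each diet, 2×Trp 2 and High-Low 2. FADS2 had 143, 135 and 77.8 FPKM in 2×Trp and 60.0, 119.8 and 98.7 in High-Low. Its lowest library was High-Low 1, and its log2 fold change of -0.36 (SE 0.34) had an unadjusted p of 0.323 in limma. The ratio of FADS1 to FADS2 therefore moved between 0.361 in 2×Trp 1 and 1.14 in High-Low 2, with 0.975 in 2×Trp 2, 0.495 in 2×Trp 3, 1.05 in High-Low 1 and 0.487 in High-Low 3. Gene length is the same in every library, so the change of this ratio between libraries does not depend on it, but the ratio itself does. ELOVL5, an elongase of polyunsaturated fatty acids, had 38.8 to 52.0 FPKM in 2×Trp and 34.9 to 65.9 in High-Low and was the most even of the 4 genes.

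Genes of triglyceride synthesis and handling held the widest spread of any role, with a median log2 range of 2.28. PNPLA3, a lipase and acyltransferase of lipid droplets (on an unplaced scaffold), had 4.89, 11.5 and 0.665 FPKM in 2×Trp 1, 2 and 3 and 0.723, 3.16 and 3.79 in High-Low 1, 2 and 3. It was under 1 FPKM in 1 library of each diet, and the extremes were 17.3-fold apart (15.9-fold without 2×Trp 3). LPIN1, a phosphatidate phosphatase (chromosome 3, 133660275 to 133741130), had 16.5, 11.1 and 1.60 FPKM in 2×Trp and 4.64, 3.50 and 5.01 in High-Low. Here 2 of the 2×Trp libraries lay above and 1 below all High-Low values. The means were 9.74 ± 7.54 and 4.38 ± 0.788 FPKM (SD, n = 3 each), and the log2 fold change of -0.62 (95% interval -2.15 to 0.91) did not pass. The LPIN1 difference hung on single libraries: it was -1.45 without 2×Trp replicate 3 (adjusted p = 0.9999 in limma), -0.34 without 2×Trp replicate 2 and -0.0729 without 2×Trp replicate 1, and -0.0825 with array quality weights.

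GPAM, the mitochondrial acyltransferase of the first step, was low throughout, at 0.881, 3.47 and 1.25 FPKM in 2×Trp 1, 2 and 3 and 2.27, 1.77 and 1.31 in High-Low 1, 2 and 3. Its highest and lowest values were both in 2×Trp libraries. DGAT1, which adds the last acyl chain, had 36.6, 47.8 and 28.5 FPKM in 2×Trp and 29.6, 61.2 and 16.6 in High-Low. Its extremes were both High-Low libraries, so DGAT1 did not share the low value of 2×Trp 3 with FASN and SCD to the same degree. MLXIPL, the glucose-responsive factor ChREBP, was the evenest member. It had 26.8, 18.3 and 19.98 FPKM in 2×Trp and 26.4, 27.0 and 25.6 in High-Low, with a log2 fold change of 0.29 (SE 0.20, 95% interval -0.18 to 0.75). The High-Low libraries stood close together and above 2×Trp 2 and 2×Trp 3, but not above 2×Trp 1.

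**Figure D3:**
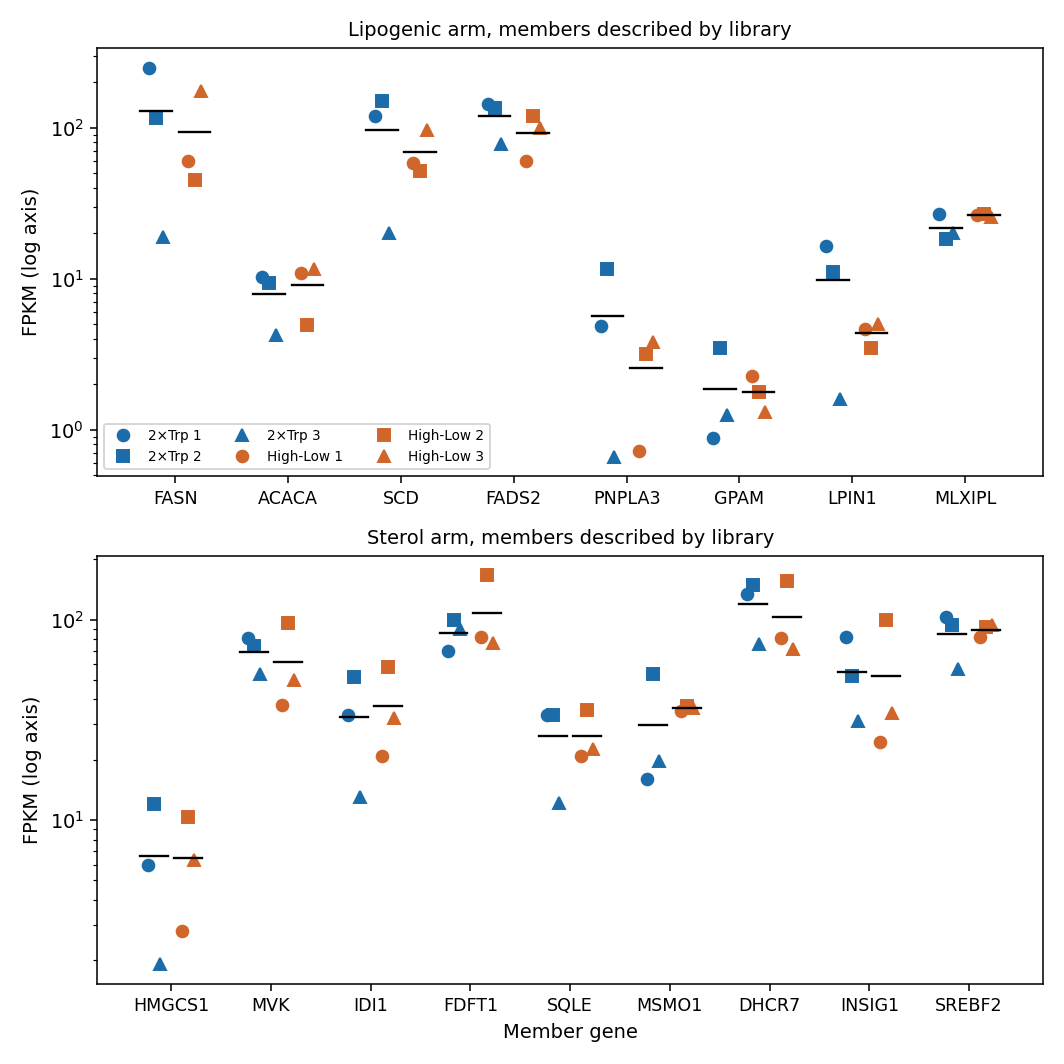
FPKM on a log axis of the members described by library (blue 2×Trp, orange High-Low; circle, square and triangle are replicates 1, 2 and 3; the black line is the mean of 3 libraries). The diets overlap for every member shown, and the triangle of 2×Trp 3 is the lowest point for FASN, ACACA, SCD, LPIN1, PNPLA3, HMGCS1, IDI1, SQLE and SREBF2.

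In the sterol arm most enzymes of the mevalonate path shared an order over the libraries. HMGCS1, which makes HMG-CoA (chromosome 16, 29433805 to 29454088), had 5.94, 11.99 and 1.91 FPKM in 2×Trp 1, 2 and 3 and 2.80, 10.3 and 6.33 in High-Low 1, 2 and 3. IDI1, the isopentenyl diphosphate isomerase (chromosome 10, 75367603 to 75370787), had 33.3, 51.5 and 13.1 FPKM in 2×Trp and 20.9, 58.4 and 32.2 in High-Low. In both genes 2×Trp 2 and High-Low 2 were high and 2×Trp 3 and High-Low 1 low, so the spread lay inside each diet. The means of HMGCS1 were 6.61 ± 5.08 and 6.48 ± 3.76 FPKM and those of IDI1 32.7 ± 19.2 and 37.2 ± 19.2 (SD, n = 3 each). Their log2 fold changes were 0.09 (SE 0.60) and 0.25 (SE 0.54).

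ACAT2, which joins acetyl-CoA units, had 40.02 to 105 FPKM in 2×Trp and 55.7 to 133 in High-Low, and FDPS, which makes farnesyl diphosphate, 161 to 403 and 249 to 416. Both were highest in High-Low 2 and lowest in 2×Trp 3. ACAT2 overlaps TCP1 on the opposite strand, so its value is uncertain. MVK, the mevalonate kinase (chromosome 14, 43850912 to 43874056), had 80.8, 73.8 and 53.3 FPKM in 2×Trp 1, 2 and 3 and 37.7, 96.1 and 50.1 in High-Low 1, 2 and 3. Here High-Low 1, not 2×Trp 3, was the lowest library. The log2 fold change of MVK was -0.26 (SE 0.36).

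From squalene onward most enzymes had a like order. SQLE, the squalene epoxidase (chromosome 4, 15248863 to 15279282), had 33.5, 33.6 and 12.1 FPKM in 2×Trp 1, 2 and 3 and 21.0, 35.3 and 22.7 in High-Low 1, 2 and 3. DHCR7, which makes cholesterol from 7-dehydrocholesterol (chromosome 2, 851768 to 864461), had 135, 149 and 75.4 FPKM in 2×Trp and 80.6, 157 and 71.4 in High-Low. For both genes 2×Trp 1, 2×Trp 2 and High-Low 2 were above the other 3 libraries. LSS, the lanosterol synthase, ran from 40.3 FPKM in 2×Trp 3 to 86.8 in 2×Trp 2, NSDHL, a sterol dehydrogenase, from 83.4 in 2×Trp 3 to 145 in High-Low 2, and HSD17B7, a sterol ketone reductase, from 15.2 in High-Low 1 to 25.9 in 2×Trp 2.

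Among these enzymes, 3 departed from that order. FDFT1, the squalene synthase (chromosome 14, 16164826 to 16199406), had 69.8, 99.4 and 89.5 FPKM in 2×Trp 1, 2 and 3 and 81.7, 167 and 76.6 in High-Low 1, 2 and 3. Only High-Low 2 stood out, and 2×Trp 3 was above 2×Trp 1. MSMO1, the methylsterol oxidase (chromosome 8, 45557528 to 45618352), had 16.1, 53.8 and 19.7 FPKM in 2×Trp and 35.1, 36.9 and 36.2 in High-Low. Its 3 High-Low values were almost equal and lay between the 2×Trp values, giving the largest log2 fold change of the arm, 0.47 (SE 0.42), which did not pass. It was 0.14 without 2×Trp replicate 1, 0.98 without 2×Trp replicate 2 and 0.28 without 2×Trp replicate 3, and without 2×Trp replicate 1 it was below that of IDI1 (0.37). MSMO1 overlaps CPE on the same strand, so its value is uncertain. SC5D, the sterol desaturase, had 4.44, 13.3 and 6.98 FPKM in 2×Trp and 10.5, 6.18 and 6.27 in High-Low, with the lowest value in 2×Trp 1.

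INSIG1, the sterol-sensitive brake on SREBP (chromosome 18, 2896505 to 3019640), had 81.8, 52.2 and 31.1 FPKM in 2×Trp 1, 2 and 3 and 24.4, 99.4 and 34.1 in High-Low 1, 2 and 3. The highest and the lowest of the 6 were both High-Low libraries, 4.07-fold apart. INSIG1 overlaps an unnamed gene on the same strand, so its value is uncertain. SREBF2, which encodes SREBP-2 (on an unplaced scaffold), had 103, 93.8 and 57.0 FPKM in 2×Trp and 81.9, 91.6 and 94.3 in High-Low. Apart from the low 2×Trp 3, SREBF2 differed little between libraries, and its log2 fold change was 0.12 (SE 0.25).

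The arms were set side by side as the mean over tested members of log2(FPKM + 1) relative to the 6 libraries. The lipogenic arm stood at 0.43, 0.57 and -0.84 in 2×Trp 1, 2 and 3 and at -0.19, -0.06 and 0.08 in High-Low 1, 2 and 3. The sterol arm stood at 0.09, 0.46 and -0.59 in 2×Trp and at -0.31, 0.52 and -0.17 in High-Low. These are values of unscaled FPKM, on which the lipogenic means of the High-Low libraries lay inside the spread of 2×Trp and close together. Scaled to the FPKM total, they stood at -0.26, -0.18 and 0.30 in High-Low 1, 2 and 3, and were less close. The sterol mean of High-Low 3 was then 0.06 in place of -0.17. On unscaled FPKM the lipogenic members were not close together. The fatty acid synthesis genes stood at -0.15, -0.43 and 0.52 in High-Low 1, 2 and 3 and the triglyceride genes at -0.34, 0.09 and -0.28. The diet means were 0.05 ± 0.78 in 2×Trp and -0.05 ± 0.14 in High-Low for the lipogenic arm, and -0.01 ± 0.53 and 0.01 ± 0.44 for the sterol arm (SD, n = 3 each). The difference in spread between the diets was not tested.

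The arms varied together over the libraries in part. Their correlation was r 0.74 and rho 0.66 (n = 6), given as a description with no p, because the members were chosen with earlier results known. Taken as deviations from the diet means, r was 0.75. Without 2×Trp 3 and 2×Trp 2, the libraries farthest from the median of the lipogenic arm, r was 0.15 over the other 4. Leaving out the extremes of an arm narrows its range and by itself lowers r, so this value cannot show which libraries carry the relation. Leaving out 2×Trp replicate 3 alone gave 0.45, 2×Trp replicate 2 alone 0.63 and High-Low replicate 2 alone 0.95, so r depended on single libraries.

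**Figure D4:**
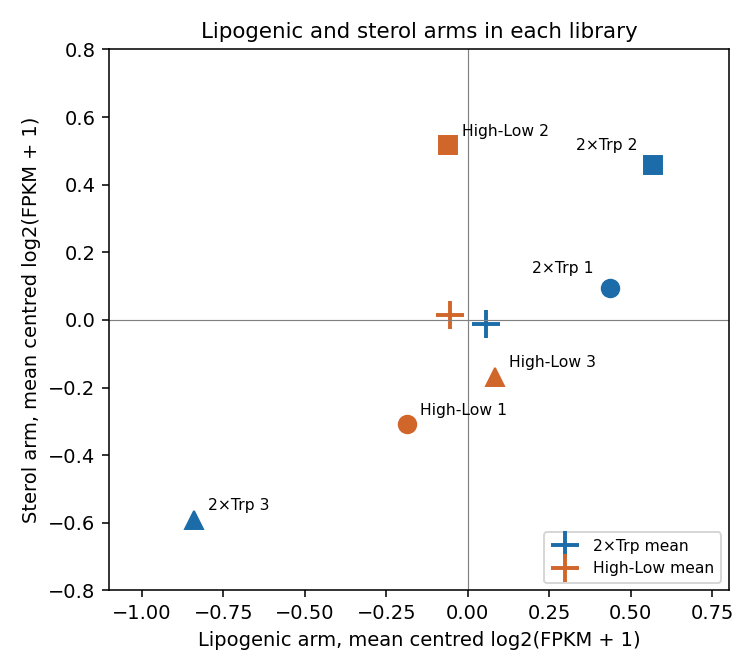
Lipogenic against sterol arm in each library, each as the mean over tested members of log2(FPKM + 1) relative to the 6 libraries (blue 2×Trp, orange High-Low; crosses are the diet means). The diet means lie beside each other near 0, 2×Trp 3 is low in both arms at -0.84 and -0.59, and High-Low 2 is high in the sterol arm alone at 0.52.

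High-Low 2 was the library in which the arms parted most. Its sterol mean was 0.58 above its lipogenic mean, 14 of 15 sterol members were above their mean in it and 9 had their highest value there, against 7 and 3 of 13 lipogenic members. Over all genes, 52.4% were above the mean in High-Low 2 and 23.8% had their highest value there. Set against High-Low 3, High-Low 2 had 2.92-fold more INSIG1, 2.19-fold more DHCR7, 2.17-fold more FDFT1 and 2.84-fold more FADS1, and the highest ratio was that of a lipogenic member, DGAT1, at 3.68. The level was higher in High-Low 2 than in High-Low 3 for 13 of 15 sterol and 6 of 13 lipogenic members, with MSMO1, SC5D and SREBF2 near equal at ratios of 1.02, 0.99 and 0.97. High-Low 3 in turn had 3.84-fold more FASN, 2.48-fold more ACLY and 2.34-fold more ACACA than High-Low 2. These are ratios of single libraries of 1 diet, chosen after their values were seen, and have no replicate check. They use unscaled FPKM, and the FPKM total was 1230288 in High-Low 2 and 956426 in High-Low 3. Scaling to these totals would lower every ratio of High-Low 2 to High-Low 3, so the counts hold for unscaled values only. The median log2 value of all genes tested, relative to the 6 libraries, was 0.02 in High-Low 2 and -0.02 in High-Low 3. High-Low 2 also had the highest neutrophil and precursor markers, at 1.24 against -0.47 to -0.04 in the other libraries, and their part in the sterol values was not tested.

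On the measure used here the sterol arm was the more coherent one, a difference that was not tested. Each member was correlated with the mean of the other members of its arm over the 6 libraries, as a description, since all values share the same libraries and scaling. The median r was 0.90 for sterol and 0.68 for lipogenic members. At r 0.8 or more lay 9 of 15 sterol members, led by FDPS at 0.98, IDI1 at 0.97, LSS and ACAT2 at 0.96 and HMGCS1 at 0.94, against 4.58% of all genes tested with the sterol mean. In the lipogenic arm 4 of 13 did, SCD at 0.97, ACSS2 at 0.91, LPIN1 at 0.89 and PNPLA3 at 0.85, against 1.69% of all genes with the lipogenic mean. Without 2×Trp 3 the median r was 0.90 for sterol and 0.41 for lipogenic members, and 10 sterol and 4 lipogenic members lay at 0.8 or more, against 13.5% and 3.85% of all genes. Over the 6 libraries, lowest in their own arm were SC5D at 0.03 and MLXIPL at 0.03. With the mean of the other arm, 4 of 15 sterol members (median r 0.63) and 2 of 13 lipogenic members (median r 0.52) reached 0.8. For pairs of members the median r was 0.75 inside the sterol arm and 0.35 inside the lipogenic arm. Pairs across the arms had a median r of 0.45, above that inside the lipogenic arm.

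Arm membership and behaviour did not always match. Of the 13 lipogenic members 5 had a higher r with the sterol than with the lipogenic mean. The clearest were FADS1, at 0.90 against 0.40, and DGAT1, at 0.74 against 0.18. Of the 15 sterol members 2 were nearer to the lipogenic mean, SREBF2 at 0.91 against 0.69 and SC5D at 0.11 against 0.03. With the sterol mean FASN, ACLY and ACACA had r 0.38, 0.22 and 0.05, and -0.22, -0.30 and -0.76 without 2×Trp 3. With the mean of the other lipogenic members they had r 0.80, 0.68 and 0.61. Those values also fell without 2×Trp 3, to 0.50, 0.41 and 0.12. Over those 5 libraries 6 lipogenic members were nearer to the sterol mean and 2 sterol members to the lipogenic mean. With 6 libraries these values are imprecise, and the differences between them were not tested.

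**Figure D5:**
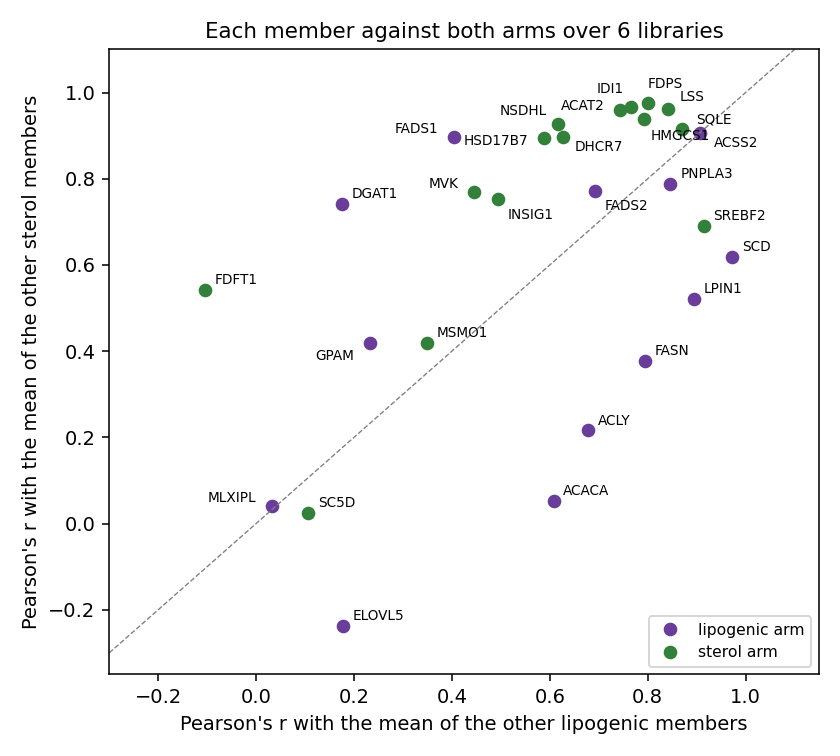
Pearson's r over 6 libraries of each tested member with the mean of the other lipogenic members (horizontal axis) and with the mean of the other sterol members (vertical axis); the dashed line marks equal values. Most sterol members (green) crowd at the top, FADS1 and DGAT1 (purple) lie above the line, and ACACA, ACLY and FASN lie below it.

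A further list of 66 genes of these pathways was counted, of which 44 were matched and 37 tested. Of these, 0 were higher and 0 lower at an adjusted p under 0.05 in limma, 17 had a positive and 20 a negative log2 fold change, and the median was -0.02. At an unadjusted p under 0.05 there was 1 of 37, beside 3.16% of all genes. It was LPIN3, a relative of LPIN1, with 7.79, 5.88 and 12.1 FPKM in 2×Trp 1, 2 and 3 and 4.81, 3.41 and 5.42 in High-Low 1, 2 and 3 (log2 fold change -0.76, SE 0.29, unadjusted p = 0.0349, adjusted p = 0.998 in limma). The LPIN3 values of the diets did not overlap, as in 4.12% of all genes on the lower side, and 2×Trp 3, lowest for LPIN1, was highest for LPIN3. Next by p was SOAT1, which esterifies cholesterol, at 1.02 ± 0.332 FPKM in 2×Trp and 1.71 ± 0.742 in High-Low (SD, n = 3 each).

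CYP51A1, the lanosterol demethylase, had 22.5, 42.8 and 15.7 FPKM in 2×Trp 1, 2 and 3 and 35.5, 25.2 and 35.6 in High-Low 1, 2 and 3, a mean of 27.0 ± 14.1 and 32.1 ± 5.99 (SD, n = 3 each). Its highest and lowest values were both in 2×Trp libraries, and its r with the mean of the sterol members was 0.43. Of the 37 genes 5 had an r of 0.8 or more with the sterol mean, against 4.58% of all genes tested. With the lipogenic mean there were 3, against 1.69%. Highest with the sterol mean was TM7SF2, a sterol reductase named after its values were seen, at r 0.94. TM7SF2 had 406, 675 and 268 FPKM in 2×Trp and 232, 595 and 311 in High-Low, highest in replicate 2 of each diet.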

How the data were processed

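Frozen liver was extracted with Trizol and sequenced as TruSeq RNA libraries, per the labels' protocols. Per the submitters' processing notes, the tools were TopHat2 2.0.12, Bowtie2 2.2.3 and HTSeq 0.6.1, with the assembly susScr3. How the values were made, and with which annotation and strand setting, the sources used here do not give. Each library has 1 table, deposited with no unit in its header. FPKM was taken as the unit of the deposited values, since they are not whole, differ in total between libraries and show no common read step, so the count models of the design could not be run. The lengths the tables list are short for some genes (463 for FASN), so levels were compared between libraries, not between genes.

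A table pairing Ensembl identifiers with symbols gave names for 11804 genes. The members and lists were chosen with earlier results of these data known. The 10901 genes that reached 1 FPKM in 3 or more libraries were fitted by limma 3.58.1 (R 4.3.3; mean trend, robust variance) on the log2(FPKM + 1) scale, with Benjamini-Hochberg adjustment over all of them and a threshold of 0.05. Fold changes on this scale understate the change of low genes. The rule for members given in every library took those with an adjusted p under 0.05 or with diets that do not overlap (0 of either), the 3 of smallest p and the 3 of largest range of each arm, and a fixed set. Some others were added after their values were seen: ACLY, FADS1, DGAT1 and SC5D. Plots used matplotlib 3.10.9 (Python 3.11.15). Some genes of the further pathway list are counted but not reported here by name.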

Additional observations from a re-analysis of the deposited data

How the results depend on the processing

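Count tests (edgeR, DESeq2) were not run, because no whole reads could be recovered. Under the 17 alternatives, 0 members of either arm were called in either direction. Over all genes, 1 gene was called higher, with 1 to 2 without single replicates. Lower calls numbered 1 in place of 0 under quantile normalization, array quality weights and each of the 3 rescalings (FPKM total, total less the 20 most abundant genes, nuclear genes). Deviations from the diet means correlated at -0.22, -0.01 and 0.03 for libraries of the same replicate number and at -0.13 to 0.12 for the others. These deviations sum to 0 within each diet, so the correlations constrain one another and cannot settle whether replicate numbers pair the libraries. The replicate block left 1 gene higher, 0 lower and the arm medians at -0.08 and 0.02. The arm medians ran from -0.53 to 0.17 (lipogenic) and -0.32 to 0.25 (sterol) without single replicates, both lowest without 2×Trp replicate 3 and highest without 2×Trp replicate 2, and turned sign with array weights, to 0.07 and -0.05. The correlation of the arms ran from 0.45 to 0.95 without single replicates and from 0.69 to 0.80 under the other settings. Leaving out 2×Trp replicate 3 for the spread and the correlations within the arms, chosen after seeing the data, took the lipogenic members in the top 10% by range from 7 to 4 and their median r with the rest of the arm from 0.68 to 0.41; the sterol arm counted 3 both ways and its median r went from 0.897 to 0.903. Of 17 named members 5 kept their sign in all alternatives: DHCR7 (-0.59 to -0.0313), FADS2 (-0.64 to -0.0758), LPIN1 (-1.45 to -0.0729), MLXIPL (0.18 to 0.44) and MSMO1 (0.14 to 0.98), whose sizes thus moved widely. With quantile normalization FASN turned to 0.0054 and GPAM to -0.0267. With array weights FASN turned to 1.28, SCD to 0.68, PNPLA3 to 0.0691, GPAM to -0.11 and FDFT1 to -0.11. Without single replicates the log2 fold change ran for FASN from -1.11 to 0.72, PNPLA3 from -1.40 to 0.0543, SCD from -1.01 to 0.42, GPAM from -0.21 to 0.42, ACACA from -0.17 to 0.52, FDFT1 from -0.11 to 0.45, MVK from -0.64 to 0.0245, HMGCS1 from -0.48 to 0.60, IDI1 from -0.28 to 0.67, INSIG1 from -0.80 to 0.19, SQLE from -0.37 to 0.33 and SREBF2 from -0.14 to 0.28. The cause of these turns was not tested. The smallest adjusted p of a named member in limma under any alternative was 0.336. Depth is unknown, so counting error could not be given.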
